A study of Mus musculus with 9 samples.

Results

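Cholesterol synthesis and its control were followed through 8 genes of the sterol pathway, taken by symbol from the table of gene counts: Srebf2, Insig1, Hmgcs1, Idi1, Fdft1, Sqle, Lss and Cyp51. None of them is a gene of cholesterol uptake, and genes of uptake are read from a further list below. All 8 were present among the 55011 genes of the table and all 8 were among the 10235 genes with enough counts to be tested. The cells were naive CD8 T cells, lymphocytes that become killers of infected or tumour cells, from the spleen of wild-type mice. All of them were stimulated for 6 h with plate-bound antibodies (4 µg/mL) against CD28, a costimulatory receptor, and against CD3, which signals for the T cell receptor. Control cells received no compound, and the other groups were given D-2HG or L-2HG, each at 20 mM, when the stimulation began, with 3 libraries in each group. These compounds are the enantiomers of 2-hydroxyglutarate, and mutant isocitrate dehydrogenases in some tumours make the D form. Unstimulated cells were not analysed here, so the levels below are those of stimulated cells only. Separate animals or cultures are not stated for the replicates in the labels, so the p-values measure the spread between these libraries, which may be technical.

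Animal cells obtain cholesterol by making it from acetyl-CoA and by taking up lipoproteins. When membrane sterol falls, SCAP carries the transcription factor SREBP-2, the product of Srebf2, from the endoplasmic reticulum to the Golgi, where proteases release the part that enters the nucleus and switches on genes of synthesis and uptake through sterol regulatory elements. INSIG proteins, such as the product of Insig1, hold SCAP back when sterols are plentiful, and both Srebf2 and Insig1 are themselves targets of the factor. T cells switch this program on after stimulation, when they build membrane for growth and division.

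The members differ in the sequence before their start sites. RefSeq promoter windows (build GRCm38.p6, 250 bases before to 50 after the start) were matched for 6 of the 8 genes, all but Fdft1 and Sqle. The sterol regulatory element TCACNCCAC, searched on both strands, lay in the Hmgcs1 window alone of these 6, at bases -137 to -129 from the start, and in 1.24% of all 32851 windows. Its shorter form TCACNCCA, a search added after the sequences were seen, lies within the full element and was found in Hmgcs1 and in Srebf2 (-162 to -155), and in 4.36% of all windows. The stretches of Srebf2, the member that passed the test, of Hmgcs1, the member with the widest range between libraries, and of Insig1, which has neither form, are shown. Each is the part of the window that lies before both the RefSeq and the GENCODE start, so the stretches differ in length (162, 250 and 201 bases), and positions count from the RefSeq start. Capitals mark matches to TCACNCCA and to the CCAAT box on either strand (ATTGG is CCAAT on the other strand).
Srebf2 (chr15:82147019-82147180, plus strand): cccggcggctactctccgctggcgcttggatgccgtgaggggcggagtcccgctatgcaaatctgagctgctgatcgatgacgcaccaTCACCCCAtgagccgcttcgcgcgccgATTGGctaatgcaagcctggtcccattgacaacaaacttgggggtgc
Hmgcs1 (chr13:119690101-119690350, plus strand): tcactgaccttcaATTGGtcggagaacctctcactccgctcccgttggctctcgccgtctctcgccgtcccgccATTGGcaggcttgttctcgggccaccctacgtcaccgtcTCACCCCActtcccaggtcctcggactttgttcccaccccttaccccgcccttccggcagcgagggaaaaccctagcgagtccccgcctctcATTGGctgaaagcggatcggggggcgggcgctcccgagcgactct
Insig1 (chr5:28071162-28071362, plus strand): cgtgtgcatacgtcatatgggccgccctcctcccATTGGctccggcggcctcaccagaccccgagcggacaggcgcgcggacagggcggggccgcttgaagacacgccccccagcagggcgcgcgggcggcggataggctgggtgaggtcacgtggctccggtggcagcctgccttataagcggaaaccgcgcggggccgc
The Srebf2 stretch holds 1 match to the shorter form only and 1 CCAAT box. The Hmgcs1 stretch holds 1 full element and 3 CCAAT boxes, and the Insig1 stretch holds 1 CCAAT box. CCAAT and the GC box GGGCGG were each found in all 6 member windows and in 37.4% and 35.7% of all windows. The E box CACGTG was found in Insig1 alone of the 6 and in 7.15% of all windows. A match describes the letters in the window and does not show that a factor binds there.

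The libraries held from 562627 (L-2HG replicate 2) to 5731885 (control replicate 3) gene counts and differed both within and between the groups. The satellite transcripts Gm10800 and Gm10801 took 1.43%, 5.35% and 0.910% of the counts in control replicates 1, 2 and 3, 3.79 to 17.0% with D-2HG and 6.71 to 24.4% with L-2HG. Control replicate 2, D-2HG replicate 3 and L-2HG replicate 2 had the highest share in their groups. Transcripts encoded by mitochondria took 2.23 to 3.06%, 0.992 to 1.88% and 1.19 to 1.83% of counts in control, D-2HG and L-2HG, so that control overlapped neither treated group. Sums of 5 CD8 T cell markers (Cd8a, Cd8b1, Cd3e, Cd3g and Trac) ranged from 2593 to 4244 CPM (gene counts scaled to a common library total) in control, 2087 to 2442 with D-2HG and 1895 to 2745 with L-2HG. Sums of the lists for CD4 T cells, B cells, macrophages and dendritic cells, NK cells and erythroid cells stayed at or under 11.2 CPM in every library. The part of these differences in the results below was not tested. Where they follow the groups, they cannot be told apart from the compounds. In RNA from whole cultures, fewer cells of a type and less RNA per cell cannot be told apart.

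With D-2HG, 1 of the 8 sterol genes rose, Srebf2, by 1.51-fold, and none fell. Of all genes tested, 22.3% passed in this comparison, 11.8% as higher and 10.5% as lower, so that 1 of 8 (12.5%) is near the share of all genes that rose. The log2 fold change was above 0 for 7 of the 8 genes, and its median was 0.47, beside 0.04 over all genes tested. With L-2HG, none of the 8 passed, while 17.7% of all genes did, 9.41% as higher and 8.30% as lower. The fold changes of 6 members were above 0 with L-2HG, and the median was 0.28 beside 0.05 over all genes. A gene passed at adjusted p under 0.05 in edgeR's quasi-likelihood test. With L-2HG no member had an unadjusted p under 0.05 (3771 of all genes did), and DESeq2 called none.

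**Figure D1:**
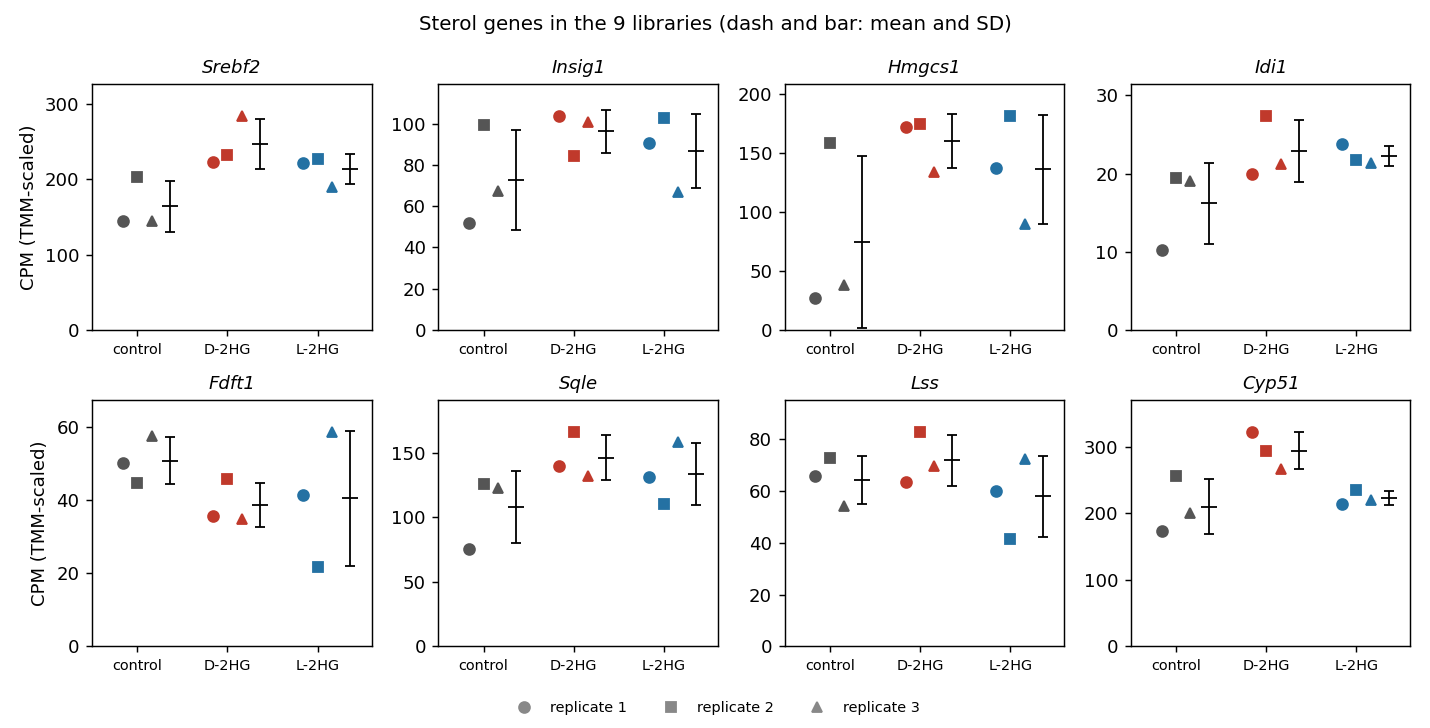
CPM of each of the 8 sterol genes (vertical axes, linear, from 0) in the 9 libraries by group, with 1 point per library, symbols for the replicate number, and dashes and bars for the group mean and SD (n = 3). Control replicate 2 is the highest control in 7 of the 8 panels, and for Hmgcs1 it stands at 158 CPM against 27.0 and 38.2 in the other controls.

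Srebf2 (ENSMUSG00000022463, mm10 chr15:82147181-82205379) encodes the factor that drives the pathway. Its level was 145, 203 and 144 CPM in control replicates 1, 2 and 3, 223, 232 and 284 CPM with D-2HG and 222, 227 and 190.3 CPM with L-2HG. All 3 D-2HG libraries lay above all 3 controls, and the L-2HG range overlapped the control range at control replicate 2. The mean was 164 ± 33.4 CPM in control, 247 ± 33.0 CPM with D-2HG and 213 ± 20.0 CPM with L-2HG (SD, n = 3). The log2 fold change was 0.59 ± 0.20 (SE) with D-2HG (95% interval 0.18 to 1.00; edgeR adjusted p = 0.0378). It was 0.38 with L-2HG (-0.04 to 0.79; edgeR adjusted p = 0.173). The D-2HG call was lost when control replicate 1 or 3, any 1 D-2HG library or L-2HG replicate 1 was left out, with adjusted p up to 0.191, when libraries were scaled by their totals, and with no filter on low counts.

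Insig1 (ENSMUSG00000045294, chr5:28071363-28078662) encodes the protein that holds SCAP in the endoplasmic reticulum. It stood at 51.9, 99.3 and 67.3 CPM in the controls, 103.9, 84.5 and 100.7 CPM with D-2HG and 90.7, 102.7 and 67.1 CPM with L-2HG. Control replicate 2 lay inside the D-2HG range, and both treated ranges overlapped the control range. Insig1 had a log2 fold change of 0.42 with D-2HG (-0.08 to 0.91; edgeR adjusted p = 0.196) and 0.24 with L-2HG (-0.27 to 0.75; adjusted p = 0.490), so neither passed.

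Hmgcs1 (ENSMUSG00000093930, chr13:119690379-119708260) encodes the synthase that joins acetyl-CoA to acetoacetyl-CoA at the entry to the pathway. Its level was 27.0, 158 and 38.2 CPM in control replicates 1, 2 and 3, with 114, 327 and 211 counts behind them. It was 172, 175 and 134 CPM with D-2HG and 137, 182 and 89.4 CPM with L-2HG. Controls 1 and 3 lay below all 6 treated libraries, whereas control 2 lay within both treated ranges. The control mean was 74.5 ± 72.9 CPM, with an SD of 97.8% of the mean, against 14.3% with D-2HG (160.5 ± 22.9 CPM) and 33.9% with L-2HG (136 ± 46.1 CPM). The log2 fold change of 1.16 ± 0.62 with D-2HG was the largest of the 8, but its interval ran from -0.26 to 2.57 (edgeR adjusted p = 0.201). With L-2HG it was 0.88 (-0.57 to 2.33; edgeR adjusted p = 0.342). Between its lowest and highest library Hmgcs1 differed 6.73-fold, and the other 7 genes by 1.85-fold to 2.69-fold.

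Idi1 (ENSMUSG00000058258, chr13:8885501-8892451) encodes the isomerase that makes the second of the isoprenoid building blocks. It was the member with the lowest counts, at 10.2, 19.4 and 19.0 CPM in control, 20.0, 27.4 and 21.2 CPM with D-2HG and 23.8, 21.7 and 21.4 CPM with L-2HG. All 6 treated libraries lay above all 3 controls, the nearest pair being 19.4 and 20.0 CPM. The log2 fold changes of 0.52 with D-2HG (-0.05 to 1.09) and 0.49 with L-2HG (-0.12 to 1.10) did not pass (edgeR adjusted p = 0.162 and 0.230). In L-2HG replicate 2, 11 counts stood behind the value.

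Fdft1 (ENSMUSG00000021273, chr14:63145150-63179578, minus strand) encodes squalene synthase, which commits the pathway to sterols. It was the 1 member whose fold change was below 0 with both compounds. Its level was 50.2, 44.6 and 57.6 CPM in control, 35.8, 45.7 and 34.8 CPM with D-2HG and 41.3, 21.7 and 58.5 CPM with L-2HG. The L-2HG libraries held both its highest and its lowest value, and D-2HG replicate 2 lay inside the control range. Fdft1 had a log2 fold change of -0.39 with D-2HG (-0.91 to 0.13; edgeR adjusted p = 0.255) and -0.23 with L-2HG (-0.78 to 0.31; adjusted p = 0.533). Of its exon bases 18.3% overlap those of Ctsb on the other strand, whose own log2 fold changes were 0.28 and 0.19 (edgeR adjusted p = 0.318 and 0.529). The library kit does not mark strand, so reads in that stretch cannot be told apart.

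Sqle (ENSMUSG00000022351, chr15:59315077-59331192) encodes squalene epoxidase. It stood at 75.8, 126 and 122 CPM in control, 140.0, 166 and 132 CPM with D-2HG and 131, 111 and 158 CPM with L-2HG. The D-2HG libraries lay above all controls, and the L-2HG range reached below control replicates 2 and 3. Neither log2 fold change passed, at 0.44 with D-2HG (-0.01 to 0.89; edgeR adjusted p = 0.141) and 0.33 with L-2HG (-0.14 to 0.79; adjusted p = 0.291).

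Lss (ENSMUSG00000033105, chr10:76531588-76557138) encodes the cyclase that forms lanosterol, the first sterol of the pathway. Its level was 65.8, 72.7 and 54.3 CPM in control, 63.3, 82.7 and 69.5 CPM with D-2HG and 59.95, 41.5 and 72.3 CPM with L-2HG. The 3 ranges overlapped, and the log2 fold changes were the smallest in absolute size with D-2HG, at 0.17 (-0.29 to 0.63; edgeR adjusted p = 0.581), and close to 0 with L-2HG, at -0.09 (-0.57 to 0.38; adjusted p = 0.797).

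Cyp51 (ENSMUSG00000001467, chr5:4081145-4104746, minus strand) encodes the cytochrome that demethylates lanosterol. It stood at 174, 256 and 200.5 CPM in control, 322, 294 and 267 CPM with D-2HG and 213, 235 and 221 CPM with L-2HG. The D-2HG libraries were above every control and every L-2HG library, while all 3 L-2HG libraries lay within the control range. The mean was 210.1 ± 41.7 CPM in control, 295 ± 27.4 CPM with D-2HG and 223 ± 10.9 CPM with L-2HG (SD, n = 3). Its log2 fold change of 0.49 with D-2HG (0.09 to 0.89) missed the threshold (edgeR adjusted p = 0.0664), and that with L-2HG was 0.09 (-0.32 to 0.49; adjusted p = 0.775).

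By CPM ranges alone, 4 of the 8 members (Srebf2, Idi1, Sqle and Cyp51) had every D-2HG library above every control, and 20.7% of all tested genes did. With L-2HG 1 member (Idi1) did, and 16.4% of all genes did.

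**Figure D2:**
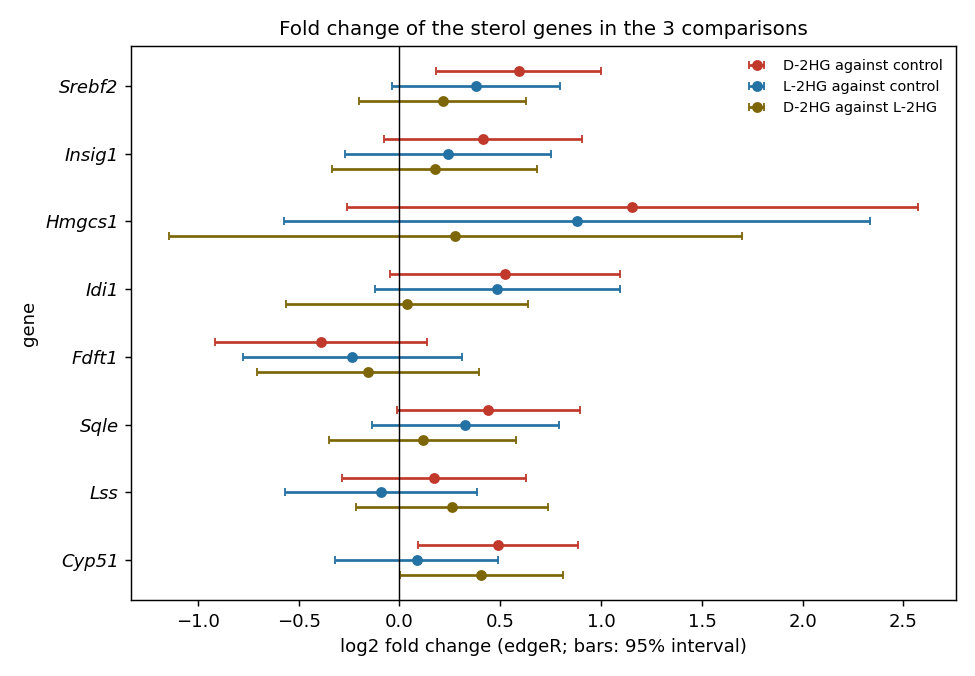
Log2 fold change of the 8 genes (horizontal axis; points are edgeR estimates and bars their 95% intervals) for each compound against control and for the compounds against each other. For Srebf2 the D-2HG interval of 0.18 to 1.00 lies above 0, and the widest intervals are those of Hmgcs1.

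D-2HG was compared with L-2HG directly, since the compounds are enantiomers, alike but for the handedness of the hydroxyl-bearing carbon, and were given at the same dose and time. None of the 8 genes passed by edgeR or DESeq2, and 0.303% of all tested genes did (31 genes, with 713 at an unadjusted p under 0.05 and 49 past the threshold by DESeq2). Cyp51 had the largest log2 difference, 0.41 higher with D-2HG (0.00 to 0.81; edgeR unadjusted p = 0.0488, adjusted p = 0.714). It was also the 1 member of 8 whose D-2HG libraries all lay above the L-2HG libraries, which 7.77% of all genes did. Lss differed by 0.26 (-0.21 to 0.74; edgeR adjusted p = 0.880) and Srebf2 by 0.21 (-0.20 to 0.63; adjusted p = 0.893). The interval of Hmgcs1 was the widest, from -1.15 to 1.70 around 0.28 (adjusted p = 0.967). The differences of Insig1, Idi1, Fdft1 and Sqle were 0.18 (-0.33 to 0.68), 0.04 (-0.56 to 0.64), -0.16 (-0.71 to 0.40) and 0.11 (-0.35 to 0.58), with edgeR adjusted p from 0.944 to 0.991. Apart from the unadjusted interval of Cyp51, whose lower limit was 0.002, the intervals leave room for differences in either direction. The compounds are thus not shown to act alike on these genes.

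Control replicate 2 stood apart from controls 1 and 3 for most of the 8 genes. It was the highest control for 7 of the 8 genes, all but Fdft1. On the log2 scale it lay above the mean of the other controls by 2.28 for Hmgcs1, 0.74 for Insig1, 0.48 for Srebf2, 0.45 for Cyp51, 0.41 for Idi1, 0.35 for Sqle and 0.28 for Lss, and for Fdft1 the difference was -0.27. Further genes of the pathway went either way, such as Srebf1 (0.67) and Soat1 (0.62) above and Mvd (-1.13) and Ebp (-0.98) below. Its counts differed from controls 1 and 3 by a chi-square per degree of freedom of 32.9 and 29.6. Controls 1 and 3 differed from each other by 9.78. The treated groups also held a library apart by this measure. D-2HG replicate 3 differed from replicates 1 and 2 by 19.9 and 43.8, beside 6.27 between those. L-2HG replicate 2 differed from replicates 1 and 3 by 23.8 and 21.5, beside 6.04 between those. How often control replicate 2 was the highest control over all genes was not counted. Control replicate 1 was the lowest of all 9 libraries for 5 genes (Insig1, Hmgcs1, Idi1, Sqle and Cyp51). Control replicate 2 also had the highest satellite share and the lowest mitochondrial share of the controls, and the part of either in these values was not tested.

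Control replicate 2 was the highest control for all of the 8 genes but Fdft1, so leaving it out raises the other fold changes by construction. The calls without it are thus no separate evidence of a rise. Without control replicate 2, 5 of the 8 genes (62.5%) rose with D-2HG, while 39.0% of all genes tested in that fit passed in either direction and 19.3% rose. They were Hmgcs1 with a log2 fold change of 2.28 (1.74 to 2.82; edgeR adjusted p = 5.41e-06), Srebf2 with 0.75 (adjusted p = 0.00297), Insig1 with 0.67 (0.0170), Cyp51 with 0.64 (0.00695) and Sqle with 0.54 (0.0475). Idi1, Lss and Fdft1 did not pass, at 0.63, 0.25 and -0.48 (adjusted p = 0.0840, 0.383 and 0.129). With L-2HG, 2 of the 8 (25.0%) rose without that library, while 37.7% of all genes passed in either direction and 19.0% rose. They were Hmgcs1 by 1.97 (1.43 to 2.52; edgeR adjusted p = 7.38e-05) and Srebf2 by 0.52 (adjusted p = 0.0299). When the library with the highest satellite share was left out of each group at once, a fit added after seeing the data, the same 5 genes passed with D-2HG, and Hmgcs1, Srebf2 and Sqle passed with L-2HG, all as higher, while 19.3% and 19.4% of all genes rose. Leaving out control replicate 1 or 3 instead took the D-2HG value of Hmgcs1 to 0.75 or 0.82 (edgeR adjusted p = 0.372 and 0.374), and then 0 of 8 members passed with D-2HG, beside 4.18% and 3.56% of all genes. The 2 remaining controls are assumed in these fits to vary as the other groups do.

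**Figure D3:**
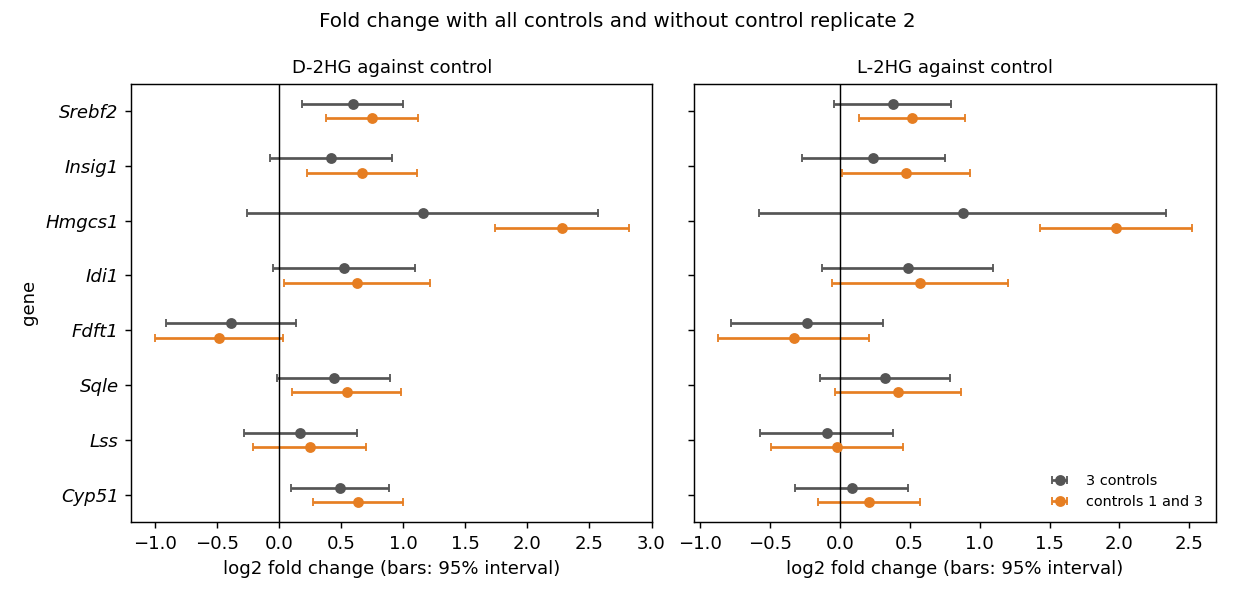
Log2 fold change of the 8 genes with 95% intervals (horizontal axes) for D-2HG and L-2HG against control, with all 3 controls and with controls 1 and 3 only. Leaving out control replicate 2 takes Hmgcs1 with D-2HG from 1.16 to 2.28 and narrows its interval to 1.74 to 2.82, whereas it was 0.75 or 0.82 without control replicate 1 or 3. Control replicate 2 was the highest control for all genes shown but Fdft1, so leaving it out raises the other fold changes by construction.

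Per kb of exon, Cyp51 had the highest level of the 8 in each group, at 47.6 ± 9.46 CPM per kb (control), 66.7 ± 6.20 (treated with D-2HG) and 50.5 ± 2.47 (treated with L-2HG), each as mean ± SD with n = 3, and its range overlapped that of no other member. Insig1, Srebf2, Sqle and Hmgcs1 followed at 23.6 ± 7.83, 22.8 ± 4.64, 19.5 ± 5.05 and 16.2 ± 15.9 CPM per kb in control, and neighbours in this order overlapped. Fdft1 was next, at 12.0 ± 1.54 in control, and Lss and Idi1 were lowest, at 5.96 ± 0.862 and 4.62 ± 1.49, with overlapping ranges. This order rests on exon lengths merged over all annotated transcripts, 10787 bases for Lss and 4227 for Fdft1. Not divided by length, the control mean was 64.3 CPM for Lss and 50.8 CPM for Fdft1, with overlapping ranges. In the D-2HG order Hmgcs1 stood at 34.9 ± 4.98 CPM per kb, next to Srebf2 at 34.3 ± 4.59, and their ranges overlapped.

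Across the 9 libraries the members did not all move together. Log2 CPM of Hmgcs1 correlated with that of Insig1 (Pearson r = 0.910, Spearman rho = 0.733) and Srebf2 (r = 0.871, rho = 0.700), and within groups these correlations were 0.891 and 0.750. Idi1 had its highest r with Sqle (r = 0.886, rho = 0.583), though its rho was higher with Srebf2 and Hmgcs1 (0.650 each). Fdft1 correlated negatively with Insig1 (r = -0.704, rho = -0.883) and Srebf2 (r = -0.612, rho = -0.750), and Lss with Hmgcs1 gave r = 0.0446. These values describe 9 libraries that share 3 groups, differ in depth and include control replicate 2, and no test was made of them. Among 5956 genes with a mean of at least 20 CPM, those most like Srebf2 over the 9 libraries were Rspry1 (r = 0.989, rho = 0.950), Ddx42 (0.986, 0.967), Bicd2 (0.980, 0.933), Tmem170b (0.977, 0.967) and Zfp148 (0.976, 0.917). Without the 2 libraries farthest from the median of Srebf2 these r were 0.903 to 0.969. Those most like the mean of the 6 enzymes were Nudcd3 (r = 0.982, rho = 0.950), Xpc (0.976, 0.750), Cebpz (0.971, 0.917), Uba1 (0.961, 0.967) and Nat10 (0.958, 0.783), with r of 0.837 to 0.916 when the 2 farthest libraries were left out.

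The rest of the pathway was read from 37 further genes in 5 lists, of which 32 could be tested. Of these, 3 rose with D-2HG (Soat1, Lrp8 and Npc1) and 2 with L-2HG (Soat1 and Npc1), or 9.38% and 6.25% of the tested genes, beside 11.8% and 9.41% of all genes, and none fell. By edgeR none of the 6 other genes of the mevalonate steps passed with either compound (Acat2, Mvk, Pmvk, Mvd, Fdps and Ggps1; median log2 fold change -0.34 with D-2HG and -0.01 with L-2HG). None of 7 genes of the steps after squalene passed (Tm7sf2, Msmo1, Nsdhl, Hsd17b7, Ebp, Sc5d and Dhcr7; medians -0.25 and -0.25). None of 7 genes of SREBP processing and sterol sensing passed (Srebf1, Scap, Insig2, Mbtps1, Mbtps2, Ufd1 and Rnf139), and their medians were 0.41 and 0.41, with 6 and 5 of the 7 above 0. Of the LXR, efflux and esterification list 1 of 4 tested genes rose with each compound, and of the lipoprotein receptor and transport list 2 of 8 with D-2HG and 1 of 8 with L-2HG. Nr1h3, Abca1, Soat2, Vldlr and Lrp1 had too few counts to be tested. No gene of the 5 lists passed between D-2HG and L-2HG. Of the list genes that did not pass, those with unadjusted p under 0.05 against control were Acat2, Hsd17b7, Srebf1, Mbtps1 and Mbtps2 with D-2HG and Mbtps1, Mbtps2 and Lrp8 with L-2HG, and DESeq2 gave the same counts as edgeR in all 5 lists.

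Without control replicate 2 further list genes passed. On the log2 scale that library lay above the mean of the other controls for each further gene that rose, such as Mylip (1.44). It lay below that mean for each further gene that fell, such as Npc2 (-0.85). Leaving it out thus moves these fold changes in the direction of their calls by construction, and the calls are no separate evidence of a change. With D-2HG 3 genes of SREBP processing rose: Srebf1, which encodes the sister factor of SREBP-2 (log2 fold change 0.71, edgeR adjusted p = 0.00652), and Mbtps1 and Mbtps2, which encode the proteases that release SREBPs (0.60 and 0.83, adjusted p = 0.0267 and 0.0422). Of the Mbtps2 exon bases 28.4% overlap those of Yy2 on the same strand, so reads in that stretch cannot be told apart. Hsd17b7, a reductase of the later steps, rose by 0.66 (adjusted p = 0.0383). Enzymes of synthesis also fell: Acat2, which makes acetoacetyl-CoA, by 0.84 (adjusted p = 0.0271), the isomerase Ebp by 0.81 (0.0157) and the dehydrogenase Nsdhl by 0.70 (0.0463), as did the lysosomal carrier Npc2 by 0.60 (0.0147). With L-2HG, Srebf1 (0.62, edgeR adjusted p = 0.0173), Mbtps1 (0.61, 0.0320) and Mylip, which encodes a ligase that degrades lipoprotein receptors (0.97, 0.0450), rose, and Ebp (-0.77, 0.0261) and Ufd1 (-0.52, 0.0391) fell. Soat1 and Npc1 passed with both compounds in that fit, and Lrp8 with D-2HG. These calls are read beside the 39.0% and 37.7% of all genes that passed in it, and they do not set the lists as a whole apart from other genes.

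**Figure D4:**
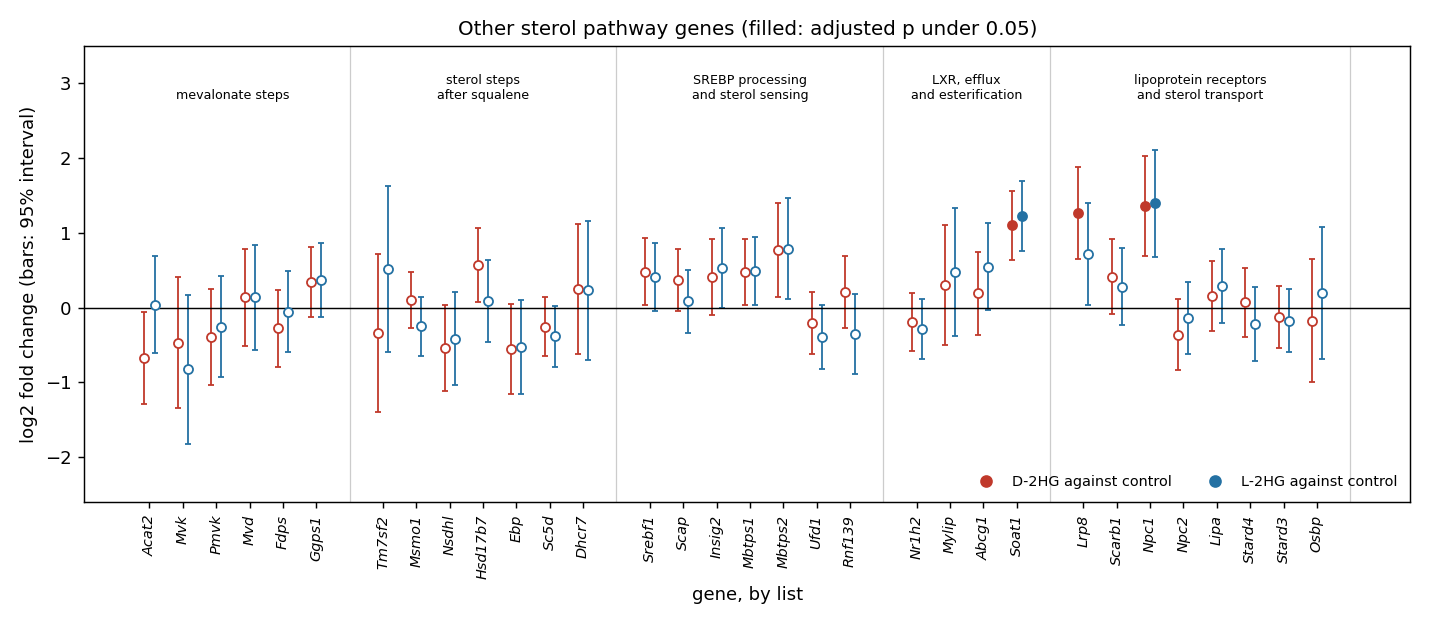
Log2 fold change with 95% intervals (vertical axis) of the 32 tested genes of the other sterol lists (horizontal axis, grouped by list) for D-2HG and L-2HG against control, with filled points for adjusted p under 0.05. Filled points are Soat1 and Npc1 for both compounds and Lrp8 for D-2HG, all above 1 on the log2 scale.

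Soat1 encodes the enzyme that esterifies cholesterol for storage. It stood at 38.4, 69.8 and 52.3 CPM in control, 117, 124 and 98.9 CPM with D-2HG and 126, 111 and 132 CPM with L-2HG, so that all treated libraries were above all controls. The log2 fold change was 1.10 with D-2HG and 1.23 with L-2HG (edgeR adjusted p = 0.00430 and 0.00557). The D-2HG call held with each library left out in turn, and the L-2HG call was lost without control replicate 3 (adjusted p = 0.0502).

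Lrp8 encodes a lipoprotein receptor of the family that takes up cholesterol-rich particles. It stood at 7.58, 10.2 and 10.3 CPM in control, 25.1, 20.3 and 22.1 CPM with D-2HG and 16.8, 23.7 and 9.99 CPM with L-2HG. The D-2HG libraries lay above the controls. L-2HG replicates 1 and 2 also did, and L-2HG replicate 3 lay inside the control range. Only 12 counts stood behind the value in L-2HG replicate 2. Lrp8 differed from control by 1.27 on the log2 scale with D-2HG (edgeR adjusted p = 0.00902; 0.0570 without control replicate 1) and 0.72 with L-2HG (0.116).

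Npc1 encodes the protein that exports cholesterol from lysosomes after uptake. Its level was 6.63, 5.33 and 5.61 CPM in control, 14.8, 14.4 and 16.7 CPM with D-2HG and 12.1, 25.7 and 14.7 CPM with L-2HG, with no overlap between either treated group and control. Behind these values stood 11 counts in control replicate 2 and 13 in L-2HG replicate 2, the library with the highest value. Npc1 rose by 1.36 on the log2 scale with D-2HG and 1.40 with L-2HG (edgeR adjusted p = 0.00925 and 0.0155). Its D-2HG call was lost without control replicate 3 (adjusted p = 0.0592), and the L-2HG call without control replicate 1 (0.0577) or 3 (0.0870), with no filter on low counts (0.0714) and after subtracting the receptor-gene background (0.0627). A stretch of 4.52% of its exon bases overlaps Rmc1 on the other strand. Both compounds were set against the same 3 controls, so the values for the 2 compounds are not independent of each other.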

How the data were processed

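Polyadenylated RNA of CD8 T cells was measured in 9 libraries, 3 per group. Per the labels' protocols, RNA was bound to beads, copied with an oligo(dT) primer, amplified by PCR and tagmented with Nextera XT. The deposited counts are whole reads per gene symbol, made by the authors with STAR 2.7.3a and featureCounts on mm10, per the submitters' processing notes. Counting settings and annotation release are not given in the sources used here. A second deposited table of signal values, those counts divided by size factors, entered no test. Positions and exon lengths came from GENCODE M21.

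Counts were fitted in R 4.3.3 with edgeR 4.0.16: filterByExpr (minimum count 10), TMM scaling, 1 model of 3 groups with 6 residual degrees of freedom, the robust quasi-likelihood F test, and Benjamini-Hochberg adjustment over all 10235 tested genes, with a threshold of 0.05. The method was tested on simulated data. Of 55011 genes 11256 had no counts. CPM are counts over TMM-scaled totals, and log2 CPM use a prior count of 2. Intervals are 95% and unadjusted. Replicate pairs differed by more than counting error (chi-square per degree of freedom 6.04 to 43.8).

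The 8 members and all lists were chosen with earlier results of these data known, and some list genes are not reported here. Named genes are the 8 members, list genes past the threshold in a comparison, and for likeness the 5 genes with the highest r with Srebf2 and with the mean of the 6 enzymes. Ctsb, Gm10800 and Gm10801, and list genes named for other fits, were picked with their values in view. Alternatives were DESeq2 1.42.0, limma-voom (limma 3.58.1) with quality weights, other scalings and filters, a fit of 2 groups alone, a block for the replicate number, a subtracted background from 1655 sensory receptor genes, and each library left out. Leaving out 3 libraries at once was added after seeing the data.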

Additional observations from a re-analysis of the deposited data

How the results depend on the processing

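With D-2HG the count of members past the threshold was 1, and it was 6 with limma-voom, 0 with library totals without TMM, 2 with a mean count of at least 50, 5 without the 3 libraries of highest satellite share and 0 to 5 with each library left out. All genes past it were 2278, and 5617 with limma-voom, 1341 with no count filter, 4493 without the 3 libraries and 384 to 4257 with each left out. With no count filter, Hmgcs1 passed in place of Srebf2. With L-2HG the members were 0, and 2 with limma-voom, 3 without the 3 libraries and 0 to 2 with each left out. All genes with L-2HG were 1812, and 5180 with limma-voom, 1195 at a mean count of at least 50, 427 in a fit of only the 2 groups, 681 after subtracting the receptor-gene background, 4379 without the 3 libraries and 65 to 4108 with each left out. For D-2HG against L-2HG no alternative put a member past the threshold, and all genes were 31, 49 with DESeq2, 177 with limma-voom, 165 without the 3 libraries and 10 to 60 with each left out. DESeq2 called 1 member with D-2HG (Srebf2) and none with L-2HG. The causes of these changes were not tested.

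Of the member fold changes under the alternatives, 425 stayed on their side of the threshold, 23 passed it newly and 8, all Srebf2 with D-2HG, no longer passed. No fold change that passed turned sign. With L-2HG, values near 0 did so for Insig1, Lss and Cyp51, and between the compounds for Idi1 and Fdft1. Of 285 counts over the other sterol lists, 30 moved by over 1.5 times. Scaling by totals moved the median log2 fold change of all genes by 0.08 with D-2HG and 0.10 with L-2HG. It moved the share of calls that were higher from 52.9 to 70.0% and from 53.1 to 77.7%.

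The replicate block put 2 members past the threshold with D-2HG (Srebf2 and Hmgcs1), 0 with L-2HG and 0 between the compounds. Libraries with the same number showed no clear pairing, though so few libraries cannot exclude it. Correlations of their deviations ran from -0.172 to 0.283, 2 of 9 pairs were over 0.1, and 3 of 9 libraries correlated best with their own number. L-2HG replicate 2, with 562627 counts, gave 11 counts each for Idi1 and Fdft1.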
